A study of Oryza sativa with 60 samples.

Results

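The radicle is the embryonic root, the organ that leaves the germinating seed before the shoot does. Here the radicle of rice (Oryza sativa, cultivar Nipponbare) in light was compared with the radicle in the dark, for the pseudouridine (Ψ) level of single uridines in poly(A)-enriched RNA and for the level of each transcript. Of the 60 libraries of the series, 10 were from radicle. Each condition had 2 input libraries and 3 bisulfite-treated libraries. The plants of both conditions were of the same cultivar, carry no mutation or transgene in their labels, and were grown on plates and collected soon after germination. The labels give light or dark only, without its length. Of 9126 Ψ sites listed over 12 rice organs and stages, 8486 had a value in both radicle conditions. Of 38978 features with an expression value, 29987 passed the filter on low values and were tested.

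Ψ is made from uridine within the RNA chain by pseudouridine synthases, which either recognize their substrate on their own or are led to it by guide RNAs. It changes base stacking and hydrogen bonding of the nucleotide and is abundant in tRNA and rRNA. In bisulfite-induced deletion sequencing (BID-seq), Ψ forms an adduct with bisulfite that is skipped by reverse transcriptase, so that the share of reads with a deletion at a uridine, after calibration, gives the fraction of molecules modified there. In roots, light is perceived by the same photoreceptor families as in shoots, although most roots grow in darkness.

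The light difference was spread over many sites. For some of those described singly below, the 7-base windows are given here as listed in the deposited site table on IRGSP-1.0. They run 5′ to 3′ on the strand of the RNA. The T in the centre of each window is the pseudouridylated base. The windows below lie in GTTCNA, the sequence of the T-loop of tRNA that TruB-type synthases (Pus4 in yeast, TRUB1 in human) modify. Capitals mark the element, and the windows shown are those of the 5 largest falls and the largest rise among the sites of this element that passed the authors' filter in both conditions, followed by 1 that passed in light only.
chr12:17694802 minus, in Os12g0481100: gGTTCgA
chr1:2077626 minus, in Os01g0138900: gGTTCgA
chr5:1499370 minus, in Os05g0126200: gGTTCaA
chr1:29560729 plus, in no annotated gene: gGTTCaA
chr4:32589927 minus, in Os04g0640700: gGTTCtA
chr9:22152919 minus, in Os09g0557400: gGTTCaA
chr4:27014865 plus, in no annotated gene: aGTTCgA

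The next windows lie in UNUAR, written here as TNTAA or TNTAG, which Pus7 of yeast recognizes. Capitals mark the element.
chr6:3040414 minus, in Os06g0159450: aTgTAAc
chr6:3056710 plus, in Os06g0160100: aTgTAAc
chr3:11549704 minus, in Os03g0320100: gTcTAGc

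The last windows belong to some of the other sites with the highest levels, rises or falls, and lie in neither element. Here the capital marks only the modified base.
chr5:22198527 plus, in Os05g0452600: ccaTcta
chr3:16120370 plus, in ENSRNA049475919: aaaTggt
chr11:23896798 plus, in ENSRNA049475701: aaaTagt
chr5:27686459 plus, in no annotated gene: cttTccc
chr2:34912879 plus, in Os02g0814700: catTtgc
chr2:24742018 plus, in Os02g0621700: acaTcca
chr3:4701471 plus, in ENSRNA049473941: ccaTggg
chr10:20702380 minus, in Os10g0532300: ctgTata
chr1:40379336 plus, in Os01g0923200: agcTgcc

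The data behind both readouts were uneven. A Ψ fraction is 1 value per condition, from reads that the authors pooled over replicates, and its read depth is unknown, so that no error can be given for a fraction and no fraction was tested. The expression table has 2 columns per group, as many as there are input libraries, and does not say whether they are input. Light replicate 2 held about 2109737 read equivalents, the fewest of its 24 columns, against 3555348 and 4400367 in the dark. Light replicate 1 (4921166 read equivalents) stood apart. Its log2(TPM + 1) values correlated at 0.857 and 0.858 with the endosperm libraries and at 0.875 and 0.881 with radicle dark across genes, against 0.955 and 0.956 between light replicate 2 and radicle dark. In a set of 325 genes chosen after their values were seen for high levels in endosperm, its summed level was 193823 TPM, against 1428 TPM in light replicate 2 and 1489 and 1940 TPM in the dark, and all 325 genes reached 1 TPM in it. A set of 252 embryo-high genes, chosen likewise, summed to 128997 TPM in it, against 1428 TPM in light replicate 2. Expression in light was therefore taken from replicate 2 alone, and replicate 1 is given beside it as a check. The treated libraries that gave the Ψ fractions could not be inspected singly. In genes whose endosperm level was over 10 times that of radicle dark, 923 sites were listed, and of these 3 passed the authors' filter in radicle light and 10 in radicle dark, against 318 in endosperm.

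Ψ levels were lower in light than in the dark at more sites than the reverse. Over the 8486 sites, 4391 were lower in light, 2727 were higher and 1368 were equal, 1336 of the last being at 0 in both. The median difference, light minus dark, was −0.34 percentage points and the mean −1.78. A difference of 10 points or more downwards was found at 1396 sites (16.5%) and upwards at 884 sites (10.4%). A value of exactly 0 can stand for a failed estimate, and 728 sites were at 0 in light only and 509 in the dark only. Over the 5913 sites above 0 in both conditions, the median level was 13.1% in light and 14.9% in the dark, 3663 sites were lower and 2218 higher in light, and the median difference was −1.66 points.

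The authors' filter for high-quality sites passed 1851 sites in light and 2396 in the dark, and 947 of them in both. These 947 sites had a median level of 16.1% in light and 18.6% in the dark. At 675 sites the level was lower in light and at 265 higher. The median difference was −1.68 points and the mean −2.47, and the middle 80% of sites ran from −8.64 to 2.95 points. The order of the sites was kept, with a Spearman rho of 0.94 between the conditions across the 947 sites. A fall of 10 points or more was found at 81 of them and a rise of that size at 16. The sites that passed in one condition alone followed the direction that the filter selects. Of 901 sites passed in light only, 808 were higher in light, and of 1449 passed in the dark only, 1360 were lower in light. These 2 groups are thus not evidence of a direction.

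**Figure D1:**
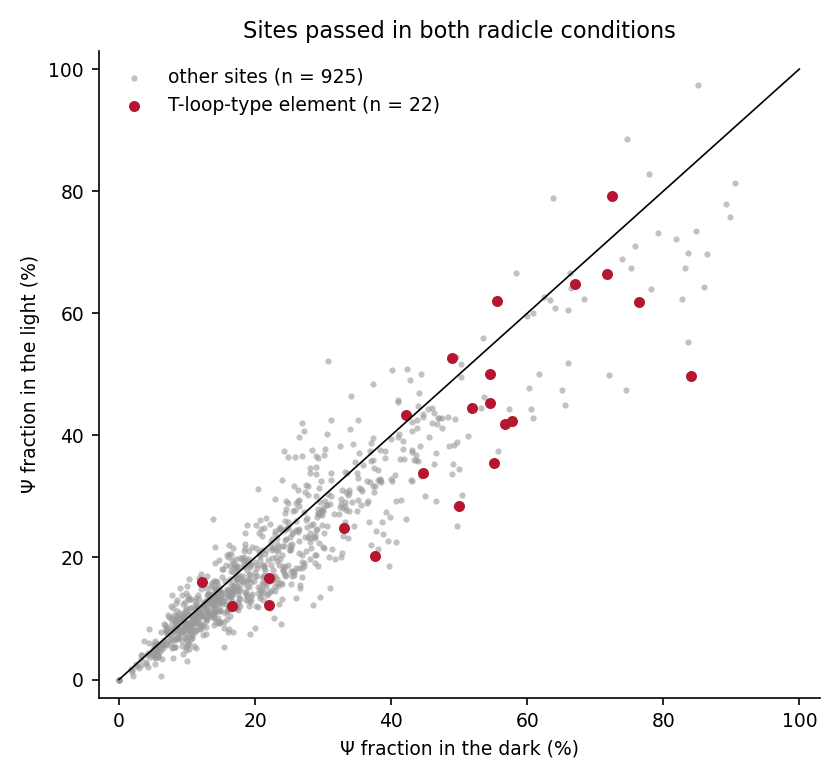
Ψ fraction in radicle light (vertical axis, %) against radicle dark (horizontal axis, %) for the 947 sites passed in both conditions, each point 1 site, with equality as a diagonal line and the 22 sites in the T-loop-type element GTTCNA in red. 675 points lie below the diagonal and 265 above it.

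For sites that passed in both conditions, the difference grew with the level of the site. Among sites passed in both, and above 0 in both, the median difference was −0.76 points where the mean of light and dark was under 10% (185 sites), −1.66 points between 10 and 20% (358 sites), −2.55 points between 20 and 35% (246 sites), −4.71 points between 35 and 50% (100 sites) and −7.01 points at 50% and over (52 sites). In each of these classes 69.2 to 77% of sites were lower in light. At the same sites in the plumule, the embryonic shoot, the median differences between light and dark were 0.00, 0.18, −0.07, −1.31 and −3.10 points. In other sets of sites the growth stopped short of the top class. Over radicle sites above 0 in both, the median went from −1.09 to −3.85 points between 35 and 50%. It was −2.85 points at 50% and over (409 sites). For sites passed in at least 5 other organs and stages, it went from −0.91 to −6.71 points. There the top class (99 sites) was at −2.85 points.

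**Figure D2:**
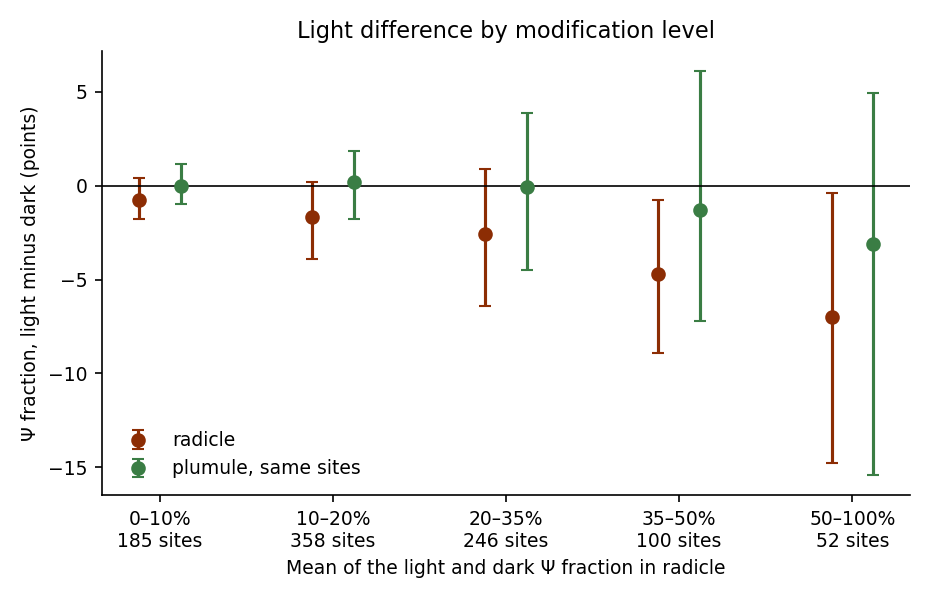
Median difference in Ψ fraction, light minus dark (vertical axis, percentage points), by the mean of the light and dark level in radicle (horizontal axis, %), for radicle and for the same sites in plumule, with bars from the lower to the upper quartile of sites. At these sites, which passed in both radicle conditions, the radicle medians fall from −0.76 to −7.01 points. The plumule medians lie between 0.18 and −3.10 points.

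Sites picked without the radicle columns went the same way. The 678 sites passed in at least 5 of the 9 other organs and stages with a filter column had 405 sites lower and 214 higher in radicle light, with a median difference of −1.67 points. For the 122 sites passed in all 9, 90 were lower and 26 higher, and the median difference was −3.61 points. On these 122 sites the mean level was 31.3% in radicle light, the lowest of all 12 groups, and 35.9% in radicle dark, the highest of the 12. On the 669 sites of the broader set with all 12 values, radicle light was again the lowest, with a mean of 24.9%, and radicle dark was in the lower middle of the order with 28.2%. Plumule light was the next lowest on both sets, with 32.6% on the 122 sites (34.97% in plumule dark) and 26.9% on the 669 (27.7% in plumule dark). In radicle, 10.0% of these 669 sites were at 0 in the dark and 11.2% in light, against at most 4.19% in any other group. Of the 122 sites, 4.92% were at 0 in each radicle condition and none in any other group, which lowers the radicle means. By the median offset from the mean of each site over the groups, plumule light was lowest on the 122 sites. It was at −1.87 points, against −1.79 points in radicle light.

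On the sites chosen by the radicle filter, plumule light and dark differed little in the median. Of the 938 sites passed in both radicle conditions that also had plumule values, 452 were lower and 448 higher in plumule light, with a median difference of 0.00 points, beside 669 lower and 262 higher in radicle. Over 5057 sites above 0 in all 4 columns, the median difference was −1.68 points in radicle and −0.17 points in plumule. The light differences of the 2 organs were hardly related across those 5057 sites (Spearman rho 0.0097). With 1 pooled fraction per condition, the difference between the organs was not tested.

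By the bases on either side of the modified T, the median difference was negative in all 12 classes with 10 or more sites passed in both. It was largest where T stood between C and A (CTA, 26 sites, median −3.57 points), followed by TTC (110 sites, −2.79 points), TTG (77 sites, −2.37 points), CTC (174 sites, −2.14 points) and GTG (158 sites, −1.83 points). In the ATC class, 68 of 128 sites were lower and 60 higher, with a median of −0.63 points. Within ATC, the windows that end in GATCGG, which make up 6.17% of all listed sites, had 33 sites lower and 35 higher of 68, and medians of 10.5% in light and 10.3% in the dark. The other 60 ATC sites had 35 lower and 25 higher, with a median of −0.95 points. TTC sites were the most modified of the common classes, at 26.6% in light and 30.1% in the dark.

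Sites in GTTCNA had a larger median fall in light than any of the classes above, but a like share of sites lower. The element was found in 2.83% of all listed windows, and 22 sites in it passed in both radicle conditions. Their median level was 42.8% in light and 53.2% in the dark. At 17 of the 22 (77.3%) the level was lower in light, against 71.3% of all sites passed in both. The median difference was −7.83 points, and 8 (36.4%) fell by 10 points or more. Levels at these sites are high, and among all 52 sites at a mean level of 50% or over the median difference was −7.01 points. In that class 75% of sites were lower and 44.2% fell by 10 points or more. The TTC sites outside the element (88 sites) differed by −1.92 points, and 71 of them (80.7%) were lower. Over the 163 GTTCNA sites above 0 in both conditions, 99 were lower and 54 higher in light, with a median of −3.88 points. Of the 50 passed in at least 5 other organs and stages, 33 (66%) were lower, with a median of −4.51 points. Among all sites of that set above 0 in both conditions, 65.4% were lower. The element was also lower in plumule light, at 18 of the same 22 sites, with medians of 28.6% in light and 43.9% in the dark. At 14 of the 22 sites the level was lower in light in both organs. The separate counts of the organs would give about as many without any link between them.

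The largest fall of all sites passed in both was in this element, at chr12:17694802 in Os12g0481100, with 49.7% in light and 84.0% in the dark. In plumule the same site had 39.7% in light and 69.4% in the dark, while the transcript was at 25.3 TPM in radicle light replicate 2 and 21.4 and 21.1 TPM in the dark. At chr1:2077626 in Os01g0138900 the level was 28.5% in light and 50.0% in the dark. At chr5:1499370 in Os05g0126200 it was 35.4% and 55.1%, at chr1:29560729, outside annotated genes, 20.3% and 37.6%, and at chr4:32589927 in Os04g0640700 42.3% and 57.8%. The direction was not shared by every site of the element. At chr9:22152919 in Os09g0557400, the level was 79.2% in light and 72.5% in the dark, the largest rise among the 22.

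**Figure D3:**
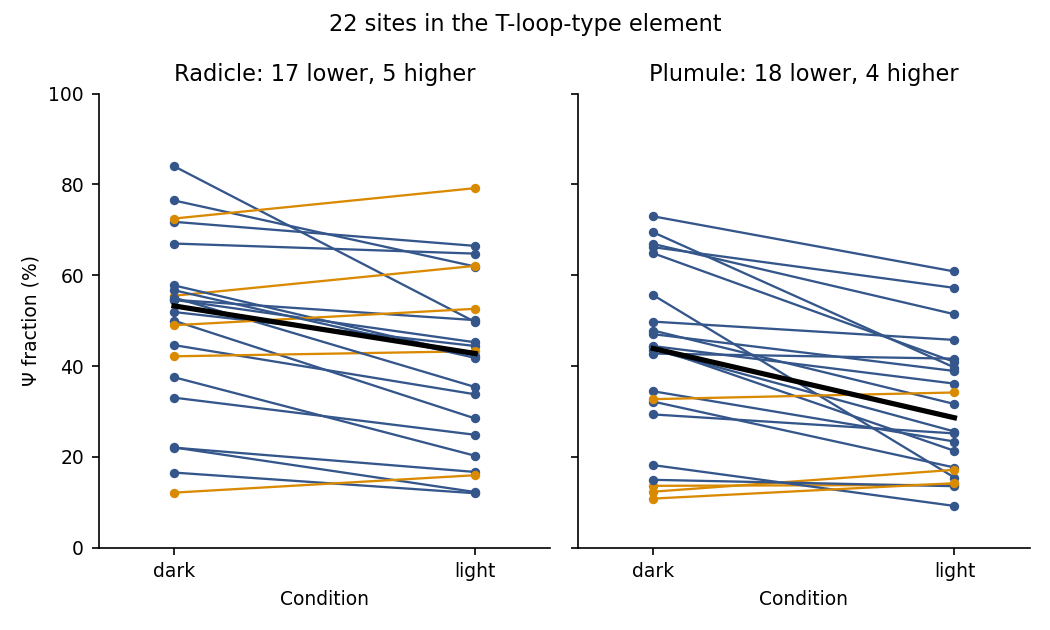
Ψ fraction (vertical axis, %) in dark and light for the 22 sites in the T-loop-type element GTTCNA that passed in both radicle conditions, in radicle and in plumule, with a thin line for each site and a thick line for the median. The median falls from 53.2% to 42.8% in radicle, where 17 sites are lower in light, and from 43.9% to 28.6% in plumule, where 18 are lower.

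The UNUAR element was in 1.55% of all listed windows and in 7 sites passed in both. Of these, 4 were lower and 3 higher in light, with a median difference of −4.00 points. The highest, chr6:3040414 in Os06g0159450, had 82.7% in light and 78.0% in the dark. At chr6:3056710 in Os06g0160100, the level was 42.2% in light and 56.9% in the dark. Os03g0320100 held a site of each element, 42 bases apart, and all 4 values passed the filter. Its GTTCNA site at chr3:11549662 had 33.8% in light and 44.6% in the dark, and its UNUAR site at chr3:11549704 had 39.8% and 45.5%.

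The sites with the highest mean levels differed by 9.21 to 14.0 points between the conditions, in either direction. The highest lay outside annotated genes at chr2:14280832 on the minus strand, with 97.5% in light and 85.0% in the dark. At chr5:22198527 in Os05g0452600 the level was 81.4% in light and 90.6% in the dark. The other 10 groups ran from 83.3 to 96.1% at this site, so that radicle light was the lowest of all. At chr11:23896798 it was 77.9% and 89.2%, at chr3:27414452 in Os03g0687000 it was 75.8% and 89.8%, and at chr2:7238019 in Os02g0228600 it was 88.6% and 74.6%.

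Outside the elements, the next largest fall was at chr3:16120370 in ENSRNA049475919, with 55.2% in light and 83.6% in the dark. Plumule gave 44.5% in light and 82.0% in the dark at this site, and the lowest of the 10 other groups was the plumule in light. The site at chr11:23896798 in ENSRNA049475701 lies in a feature of equal length and was likewise lower in light in plumule, with 71.9% in light and 91.9% in the dark. At chr5:27686459, outside annotated genes, the level was 47.4% in light and 74.5% in the dark. It was 25.1% and 49.7% at chr2:34912879 in Os02g0814700, and 49.9% and 72.1% at chr2:24742018 in Os02g0621700. At these last sites no other group exceeded 51.8%.

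Rises were smaller. At chr3:4701471 in ENSRNA049473941, the level was 52.3% in light and 30.7% in the dark, where plumule had 26.8% in light and 34.4% in the dark. It was 42.1% and 26.9% at chr10:20702380 in Os10g0532300, 78.8% and 63.8% at chr1:40379336 in Os01g0923200, and 40.8% and 27.2% at chr1:43065063 in Os01g0974400. At all 4 sites plumule was lower in light than in the dark, and at chr10:20702380 and chr1:43065063 it was listed at 0 in light. Among sites passed in one condition only, and so chosen by their direction, the widest gaps of those above 0 in both were 96.6% in light against 47.0% in the dark at chr4:27014865 in GTTCNA, and 16.4% in light against 73.6% in the dark at chr2:25512499 in Os02g0636300.

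Along the gene span, split in 5 equal parts from the 5′ to the 3′ end, the 905 sites passed in both that lay in exactly 1 gene were most frequent in the last part (31.7%) and the opening part (20.3%). The median difference was −1.55, −1.31, −1.11, −1.94 and −2.14 points from the 5′ to the 3′ part. Most genes held 1 such site. Of 137 genes with 2 or more, every site was lower in light in 64 and every site was higher in 8. Of all sites passed in both, 71.3% were lower, so many such genes would be found without any link between their sites. These counts are thus not evidence that the sites of a gene move together. Of the organellar sites, 1 passed in both conditions, at Mt:232331 on the minus strand, with 35.3% in light and 49.1% in the dark. The plastid site at Pt:16286 on the plus strand, in a short unnamed feature and in GTTCNA, had 100% in light and 95.3% in the dark and passed in light only.

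Transcript levels changed widely between the conditions. By limma on log2(TPM + 1), with Benjamini-Hochberg adjustment at 0.05, 8638 genes (28.8%) passed, of which 5068 genes (16.9% of those tested) were higher in light and 3570 (11.9%) were lower. On this scale, which understates the change of low genes, 897 rose and 1607 fell by 2-fold or more, and 88 rose and 362 fell by 4-fold or more. Small changes were therefore mostly increases and large ones mostly decreases. In bulk tissue, fewer cells of a type and less RNA per cell cannot be told apart. Over the 5464 genes with a mean of the light and dark level of 32 TPM or more, 1456 (26.6%) were higher and 929 (17%) lower, with a median absolute log2 change of 0.47 and 0.64. Light replicate 1 was below both dark libraries for 87.3% of those lower genes, but also for 76.3% of the 3079 genes not called, so that its place below them says little. It was above both for 50.5% of the higher genes and for 17.0% of those not called.

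These counts rest on a single light library, which was assumed to vary as replicates of the other groups do. With both light libraries and weights by library, each light library received a weight of 0.106 and 810 genes passed the threshold, 356 higher and 454 lower. The 2 libraries of every group received equal weights. The weight thus reflects how far the light pair disagreed and does not rate replicate 2 by itself. The balance of directions depended on the scale: centring each library on its median turned it to 3854 higher and 4199 lower (47.9% of calls higher, against 58.7%).

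The rice genes of the expression table carry identifiers without names, so their functions are not described, and the identity of the tissue could not be checked with named markers. Of the genes at 32 TPM or more, the 10 with the largest rises reached between 50.4 and 222 TPM in light replicate 2 from dark means of 5.72 to 58.3 TPM. Light replicate 1 was above both dark libraries for 8 of the 10, against 17.0% of the genes not called at that level. The 10 with the largest falls went from dark means of 66.9 to 789 TPM to between 3.87 and 72.9 TPM. Light replicate 1 was below both dark libraries for all 10, but also for 76.3% of the genes not called, so that its side alone says little.

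Os08g0239300 (chr8:8437323-8445916, plus strand) was at 12.5 and 12.7 TPM in the dark, 136 TPM in light replicate 2 and 70.8 TPM in light replicate 1. Both light libraries were thus above both dark ones, and the log2 change was 3.33 ± 0.19 (SE), with an adjusted p of 1.23e-08. Its plumule mean was 2.67 TPM in the dark and 2.67 TPM in light. Os05g0465601 (chr5:22856741-22856813, minus strand), a feature of 73 bases, had the largest log2 change, 4.71 ± 1.39 (adjusted p = 0.0196), from 0 and 11.4 TPM in the dark to 91.1 TPM in light replicate 2. Its level in light replicate 1 was 7.06 TPM, between the dark values, and the high value corresponds to 11 read equivalents. Without dark replicate 1 the gene was not called, and its log2 change ranged from 1.19 to 6.52 over the alternatives, with adjusted p up to 0.797.

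Os06g0199000 (chr6:5023093-5024199, plus strand) was at 193 and 195 TPM in the dark, and at 10.4 and 10.1 TPM in light replicates 2 and 1. The log2 change was −4.10 ± 0.30 (adjusted p = 1.64e-07), an 18.7-fold lower level in TPM. Outside radicle its highest group mean was 2.95 TPM. Os02g0585100 (chr2:22558881-22559609, minus strand) was at 119 and 127 TPM in the dark, 6.55 TPM in light replicate 2 and 5.58 TPM in light replicate 1. The log2 change was −4.04 ± 0.26 (adjusted p = 4.17e-08), or 18.8-fold. In plumule its mean was 2.36 TPM in the dark and 0.19 TPM in light. For both genes light replicate 2 lay below the dark libraries by the rule of choice. Light replicate 1 was below them too, as it was for 76.3% of the genes not called at 32 TPM or more.

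**Figure D4:**
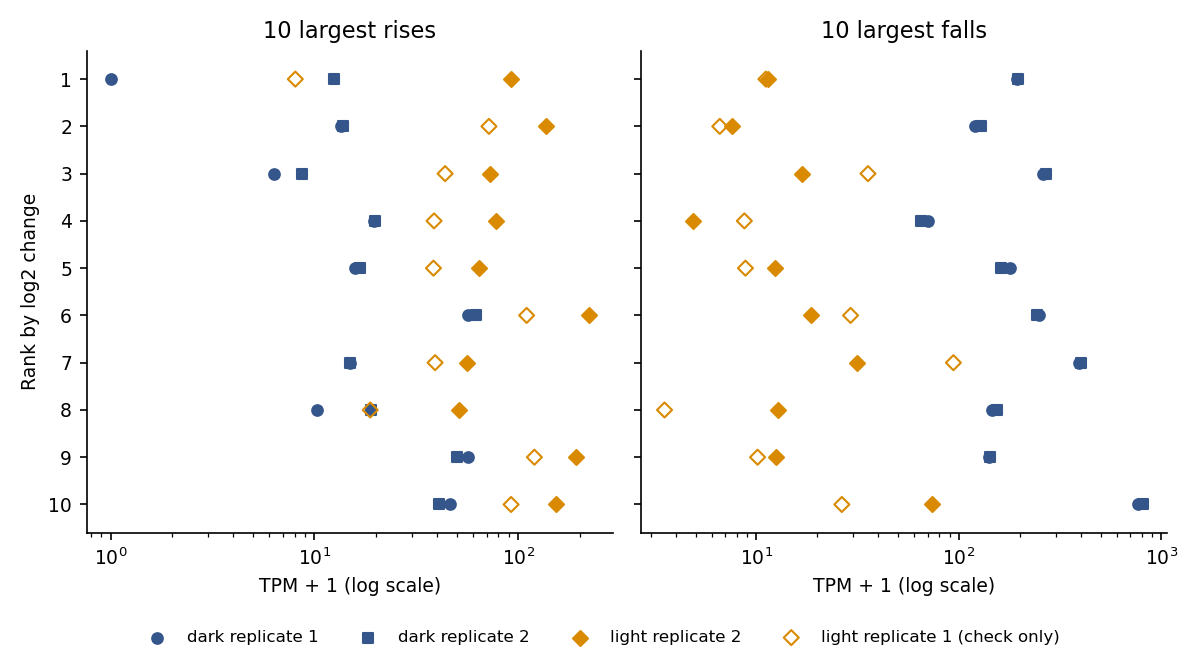
Expression (TPM + 1, log scale, horizontal axis) of the 10 genes with the largest rises and the 10 with the largest falls at 32 TPM or more, each row 1 gene, with separate symbols for dark replicates 1 and 2 and light replicates 1 and 2. Light replicate 1 lies beyond both dark libraries, on the side of replicate 2, for 8 of the 10 rises and all 10 falls. Among genes not called at that level, it lies above both dark libraries for 17.0% and below both for 76.3%.

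The strongly changed genes differed in where else they were expressed. Of the 82 genes at 32 TPM or more that rose 2-fold or more, 24.4% had their highest level outside radicle in plumule light and 18.3% in the 8-day seedling, against 16.8 and 4.54% of all 5464 genes. Of the 258 that fell 2-fold or more, 2.33% had it in plumule light, 22.1% in the 2-week seedling, 15.5% in flag leaf at 10 days after anthesis and 14.3% in straw, against 16.8, 10.1, 8.86 and 8.64% of all. Both groups held genes nearly confined to radicle among the organs measured: every other group was under 10% of the highest radicle library for 18 of the 82 (22.0%) and 61 of the 258 (23.6%), against 241 of 5464 (4.41%). Sets of genes chosen after their values were seen, for high levels in another tissue and low levels in radicle dark, moved in different directions. The choice thus used the dark values from which the change is measured. The 188 genes high in plumule light summed to 2518 TPM in light replicate 2, 12186 TPM in light replicate 1 and 1314 and 1314 TPM in the dark, with 77 called higher and 16 lower (median log2 change 0.36). The 330 genes high in the 2-week seedling summed to 1837 TPM in light replicate 2, and 135 were called higher and 36 lower (median 0.34). Of the 325 endosperm-high genes, 63 were called higher and 78 lower (median −0.21). Of the 252 embryo-high genes, 32 were called higher and 83 lower (median −0.40). Over all genes tested, 16.9% were called higher and 11.9% lower. The part of other tissue in these changes was not tested. Genes that fell also lay next to each other. Of the 362 genes lower by 4-fold or more, 66 (18.2%) had an adjacent tested gene that fell as much, against 2.35% of all tested genes, and for the 88 that rose as much the shares were 12.5 and 0.58%. Copies of a gene can share reads, and how such reads were counted is not given in the sources used here.

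Longer transcripts were more often higher in light. Among genes at 32 TPM or more, the share called higher went from 13.4% at 300 to 600 bases (477 genes) to 54.4% over 3000 bases (193 genes), and the share called lower from 22.8% at 600 to 1000 bases (1406 genes) to 7.77% over 3000 bases. The Spearman rho of the log2 change with length across these genes was 0.23 in light replicate 2, 0.21 in light replicate 1 and 0.41 for plumule. The part of RNA quality or library preparation in this trend was not tested.

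**Figure D5:**
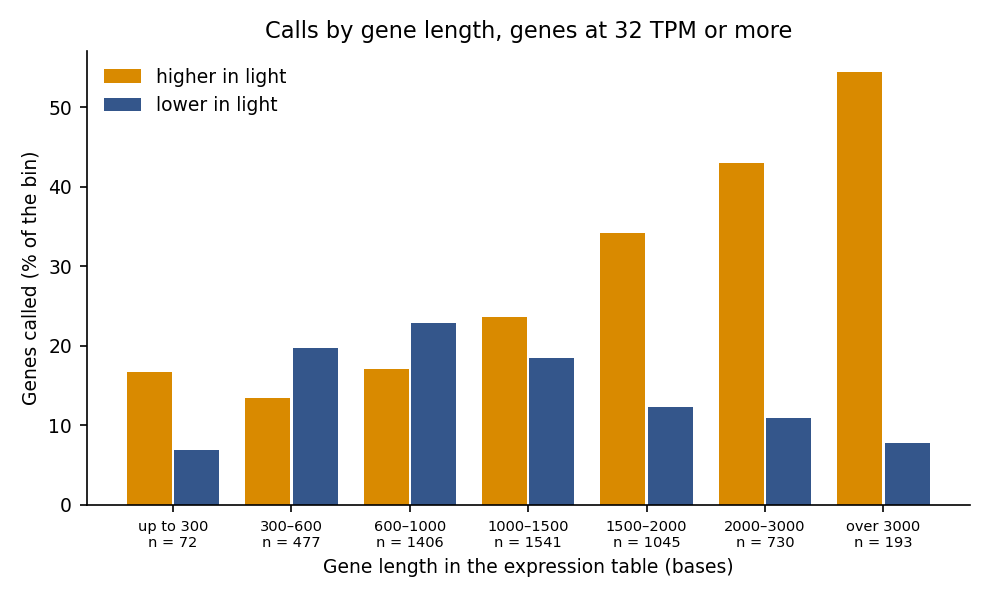
Share of genes at 32 TPM or more called higher or lower in light (vertical axis, % of each bin), by gene length in the expression table (horizontal axis, bases), with the number of genes under each bin. The share called higher reaches 54.4% over 3000 bases, where 7.77% were called lower.

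The light response of radicle was then set beside that of plumule, which shares no library with it. In plumule 7853 genes (26.2%) were higher and 3087 (10.3%) lower in light. Of the genes higher in radicle light, 2578 were also higher in plumule light, which is 50.9% of the radicle and 32.8% of the plumule genes. Of the genes lower in radicle light, 1015 were also lower in plumule, 28.4 and 32.9% of the respective lists. Opposite calls were made for 291 genes higher and 527 genes lower in radicle. The difference of the 2 responses was past the threshold for 6927 genes (23.1%), with the radicle effect higher for 2599 (8.67%) and lower for 4328 (14.4%). Of the 82 strong rises above, 53 were called in the direction of radicle, and of the 258 strong falls 148 were. Both lists were chosen by the radicle change that is part of this difference. These counts are therefore not evidence of a response particular to radicle. The difference was 3.32 for Os08g0239300 (adjusted p = 2.00e-07), −4.12 for Os06g0199000 (adjusted p = 2.55e-06) and −2.52 for Os02g0585100 (adjusted p = 6.70e-05), all on the log2(TPM + 1) scale. It did not pass for Os05g0465601 (4.27, adjusted p = 0.104), and with a pseudocount of 0.1 it did not pass for Os02g0585100 (−0.73, adjusted p = 0.595). Averaging the replicate pairs of plumule and endosperm, which agreed within sampling noise, left 3919 genes.

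The organelle genes, which the files name, were mostly low. Of 57 named plastid genes 32 had a mean of light and dark under 1 TPM, and 3 were called higher and 3 lower. A log2 change of 1 or more in size was found for 6, of which 3 were not called. The gene psbA encodes the D1 protein of the photosystem II reaction centre. It was at 0.33 and 0.38 TPM in the dark, 1.76 TPM in light replicate 2 and 2.46 TPM in light replicate 1. The log2 change with replicate 2 was 1.03, and it differed from that of plumule by 0.15. All libraries of psbA were low, and these values correspond to few reads. The gene rps16, for a plastid ribosomal protein, was at 5.74 and 5.77 TPM in the dark, listed at 0 in light replicate 2 and at 7.54 TPM in light replicate 1, so that the light libraries lay on opposite sides of the dark ones. The highest was rpl16, listed with a length of 9 bases, at 77.3 and 73.6 TPM in the dark and 79.9 and 102 TPM in light replicates 2 and 1, while the plumule means were 17.3 TPM (dark) and 216 TPM (light). Of 35 named mitochondrial genes, ccmB and ccmC, for cytochrome c maturation, were higher at under 1.5 TPM, and rpl5, orf25 and rps2-2 were lower. The poly(A) selection of these libraries is not designed for organelle transcripts. Near 1 TPM, or in features as short as rps16 (40 bases) and rpl16, a value can rest on very few reads. The spread used by limma came from all groups and may understate the error of so few reads. The 37 unnamed plastid features of 65 to 88 bases summed to 55.5 and 43.3 TPM in the dark. Their sum was 217 TPM in light replicate 2 and 56.6 TPM in light replicate 1, so only 1 light library was clearly above the dark. At 73 bases, 91.1 TPM in light replicate 2 corresponded to 11 read equivalents (Os05g0465601), so this sum rests on few reads.

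Ψ differences were finally set against the expression change of the host gene. Of the 905 sites passed in both that lay in exactly 1 gene, 377 were in genes higher in light, and 298 of them were lower in Ψ, with a median difference of −2.30 points. In genes not called (398 sites) the median was −1.50 points, and in genes lower in light (130 sites) it was −0.17 points, with 71 sites lower and 59 higher. The Spearman rho across the 905 sites was −0.25, and −0.24 over the 850 in hosts at 32 TPM or more. It was not found in other sets of sites: rho was −0.02 over the 5545 sites above 0 in both and −0.02 over the 609 sites passed in at least 5 other groups. Sites share hosts and libraries, so these are descriptions. Across the 905 sites, Ψ fraction itself was lower in highly expressed hosts, with rho of −0.49 in light and −0.47 in the dark. These sites passed a P-value filter, for which a site with few reads may need a higher fraction. The rho is thus not evidence of a relation beyond the filter. As single cases, the site at chr5:22750736 in Os05g0463100 (transcript log2 change 2.10) had 45.0% in light and 65.6% in the dark. The site at chr1:35782046 in Os01g0834900 (log2 change −2.43) had 32.63% and 23.97%. The other sites chosen by the same rule moved less. With host log2 changes of 1.97 and 1.90, the level was 17.2% and 19.2% in Os05g0217800, and 23.3% and 25.1% in ENSRNA049471602. With host changes of −2.08 and −1.96, it was 42.8% and 47.0% in Os09g0381400, and 39.6% and 37.4% in Os06g0169900. In Os09g0381400 the site thus fell along with the transcript.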

How the data were processed

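RNA of radicle and 10 other groups was sequenced as input and bisulfite-treated libraries. The Ψ fraction of each site, deposited as a fraction for each tissue, was made by the authors with the pseudoU-BIDseq pipeline on IRGSP-1.0: reads with and without a gap were summed over replicates, the gap ratio was calibrated, and sites were filtered by a P-value rule. Fractions are printed here as percentages. The deposited TPM values are in 24 columns, 2 a group, whose names do not say input or treated; the aligner and counter are not given in the sources used here. Read equivalents per library were estimated from the steps between low TPM values, where 49.3 to 70.1% of values were whole within 0.02.

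Genes with at least 1 TPM in 2 or more libraries were tested with limma 3.58.1 (R 4.3.3; trend) on log2(TPM + 1), with 12 groups sharing 1 estimate of the spread. Light replicate 1 of radicle was left out, so 23 libraries entered the fit. The p-values were adjusted by Benjamini-Hochberg over 29987 genes at 0.05. Sites were summarised with Python 3.11.15, NumPy 2.4.6, pandas 2.3.3 and SciPy 1.17.1, with no test. On simulated data, calls among weakly expressed genes exceeded the nominal error rate, so counts at 32 TPM or more are given beside the others. Replicates are separate samples by label, and the pairs of most groups differed by little more than sampling noise (chi-square per gene 0.993 to 1.14, against 7.95 for radicle light), so the p-values measure a spread that may be technical. The plumule dark, plumule light and endosperm pairs agreed within it and were averaged as an alternative.

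Genes were named by this rule: at 32 TPM or more and past the threshold with light replicate 2 outside the dark range, the 10 largest rises and falls, of which 2 each are printed because the identifiers carry no names (1 of 37849 matched the RefSeq table of another assembly). Planned lists of rice marker and pathway genes could not be matched for the same reason. Sites were named by the 5 highest means, 5 largest rises and 5 largest falls among those passed in both, the 3 largest differences among those passed in one condition, and the 3 sites each whose genes rose or fell most. GTTCNA and UNUAR sites were added with values known. The members, lists and thresholds were chosen with earlier results of these data known. Same-numbered replicates did not deviate together (correlations −0.0185 to 0.023) and were not paired. Alternatives covered the pseudocount, filter, scaling, groups in the fit, each replicate left out and the site sets; those added after seeing the data are the sets by other tissues, the level of 32 TPM, the averaged pairs and the sets without endosperm-high genes.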

Additional observations from a re-analysis of the deposited data

Results flagged for a closer look

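The light response differed between radicle and plumule by the test of the difference itself for 6927 genes. Among the printed genes, the radicle change exceeded that of plumule for Os08g0239300 (difference 3.32 on the log2(TPM + 1) scale, 70.8 and 136 TPM in the light libraries), and lay below it for Os06g0199000 (difference −4.12) and Os02g0585100 (difference −2.52). The first of these was at a like level in both plumule conditions, where the means were 2.67 TPM (dark) and 2.67 TPM (light). The count of genes and these differences rest on a single radicle light library. The spread came from replicate pairs that mostly differed by little more than sampling noise, so it may be technical. Fewer genes passed when the plumule and endosperm pairs were averaged. A difference between single harvests can thus not be told from a difference between the organs. In radicle light replicate 1, which was left out of the reported fit, the 325 endosperm-high genes summed to 193823 TPM, against 1489 and 1940 TPM in the radicle dark libraries and 322189 and 330556 TPM in endosperm itself. Whether endosperm or embryo tissue was collected with that sample was not tested.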

How the results depend on the processing

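For the genes called between light and dark, 8638 in all, the count moved by over 1.5 times with library weights (810) and at 32 TPM or more (2385), and leaving out 1 library at a time gave 7073 to 12094, the highest being with light replicate 1 alone. For the difference from plumule, 6927 genes became 4540 with light replicate 1 added and 3919 with averaged pairs, and quantile scaling moved the share higher in radicle from 37.5 to 50.1%. A replicate block, with replicates that share only a number, gave 8314 and 6631 genes. The share of differing Ψ sites that were lower in light was 61.7% over all sites, 64.7% for sites passed in at least 1 condition, 71.8% for those passed in both, 63.9% in hosts at 10 TPM or more and 65.4% for sites passed in at least 5 other tissues. Sites lower by a set amount numbered 1396 at 10 points, 2392 at 5 and 634 at 20, and sites higher 884, 1415 and 432. The rho of Ψ difference and host change was −0.25 for sites passed in both, −0.020 for sites above 0 in both and −0.024 for sites passed in at least 5 other tissues. The cause of these shifts was not tested. Of the values of the 20 named genes under alternatives, 262 kept their call, 18 lost it and none changed direction. Depth was lowest in the one light library used, and the depth behind a fraction is unknown.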

Other observations

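Some Ψ sites were found in the genes with the largest changes. Os06g0199000, whose transcript fell, held a site at chr6:5023759 with 9.21% in light and 17.7% in the dark, and Os02g0585100 held one at chr2:22559225 listed at 0 in light and at 13.7% in the dark. Both passed in the dark only. The 73-base feature Os05g0465601 held a GTTCNA site at chr5:22856759 with 97.6% in light and 71.9% in the dark, and a UNUAR site at chr5:22856801 listed at 100% in light and 0 in the dark. Both of these passed in light only.

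The pairing of these elements was listed at other positions too. Within 100 bases upstream of GTTCNA sites on the same strand, 31 listed sites were found, of which 15 lay 41 to 43 bases away. In 8 of these 15 the upstream window was in UNUAR, out of 9 UNUAR windows at any distance up to 100 bases. In yeast tRNA, Pus4 modifies the T-loop and Pus7 the D-arm upstream of it. The files do not name the features at these positions.

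The most frequent windows among sites passed in both were agaTcgg (24 sites, medians of 9.73% in light and 9.93% in the dark), cgaTcgg (23 sites, 12.8% and 12.9%), cgcTcgg (22 sites, 31.6% and 34.2%) and tgaTcgg (16 sites, 9.96% and 9.46%), where the capital marks the modified base. The letters of agaTcgg are also the opening letters of a widely used Illumina adapter, and whether adapter bases entered the alignments was not tested. The 11 windows gGTTCgA, with the element in capitals, had medians of 45.2% in light and 54.6% in the dark.

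Of the sites with a value above 0, 12.9% in light and 12.8% in the dark had a value shared to every listed digit with another site of the same column, against 3.72 and 4.68% among sites passed in both. Between light and dark, 32 sites had an identical value above 0, of which 7 were at 100% and 1 passed in both.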
